A study of Homo sapiens with 48 samples.

Results

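Aminoacyl-tRNA synthetases join each amino acid to its tRNA, the step that sets which residue a codon brings into a protein. Human cells keep a cytosolic set, whose symbols mostly end in 1, and a set encoded in the nucleus and imported into mitochondria, whose symbols end in 2. The members described here were chosen by symbol: 35 genes were given, 19 for cytosolic enzymes and 16 for mitochondrial enzymes, and 34 of them are among the 14685 genes counted. All 19 cytosolic members and 15 of the 16 mitochondrial members were listed, and SARS2 was not. GARS1 and KARS1 are counted with the cytosolic enzymes, although each also makes the form used in mitochondria. EPRS1 carries the activities for both glutamate and proline.

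Several cytosolic enzymes, namely those for glutamate and proline (EPRS1), isoleucine (IARS1), leucine (LARS1), methionine (MARS1), glutamine (QARS1), arginine (RARS1) and lysine (KARS1), sit in a multi-synthetase complex held together by the scaffold proteins AIMP1, AIMP2 and EEF1E1. The other cytosolic enzymes act outside it. When cells sense uncharged tRNA or other stresses, the transcription factor ATF4 is translated and binds C/EBP-ATF composite elements, and many cytosolic synthetase genes are known ATF4 targets, whereas the mitochondrial enzymes are mostly not counted among them.

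The RNA came from HEK293T cells, a human embryonic kidney line, which in every arm had been transfected with a plasmid expressing the nuclear cap-binding protein NCBP1 fused to Halo, a self-labelling protein. In the T-REX arm, the cells received Ht-PreHNE, a photocaged form of the lipid-derived electrophile 4-hydroxynonenal (HNE) that binds Halo. Light was then given, which frees HNE beside NCBP1. The study's protocol for T-REX in these cells, which covers the plates for RNA sequencing, names a form of Ht-PreHNE with an alkyne group. Elsewhere the study says that the form releasing native HNE serves for work on signalling. The 3 control arms are called light alone, probe alone and DMSO. By the study's Methods, probe alone received Ht-PreHNE but no light and DMSO neither. For light alone they name both Ht-PreHNE and light, as for T-REX, so that how this arm differed is not clear from them. There were 4 replicates of each arm at 3, 6 and 12 h after the treatment, that is 16 libraries at a time point and 48 in all. Plasmid and endogenous NCBP1 are not separated in the counts.

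The question for the members was whether RNA for the cytosolic and the mitochondrial enzymes differed between T-REX and each control at 3, 6 and 12 h. Levels are given as CPM, a gene's count divided by the library total after TMM scaling, and differences as log2 fold changes with a standard error (SE). The SE was derived from edgeR's quasi-likelihood test, as the absolute log2 fold change divided by the square root of the F statistic. A gene was called in a comparison at an adjusted p of at most 0.05, adjusted by the Benjamini-Hochberg method over all 14685 genes. The study counts a gene as changed at a time point when at least 2 of the 3 controls call it, and the same rule is used here in 1 direction at a time. The 3 comparisons of a time point share the 4 T-REX libraries. Library totals ran from 23952455 to 37099535 counts, and the lowest count of any member in any library was 42, for VARS2, with 232 for the next lowest members, HARS2 and PARS2. In bulk RNA, fewer cells of a type and less RNA per cell cannot be told apart. Of 7 genes that mark HEK293 cells, 6 were listed and PAX2 was not. Among 6 markers of blood, liver, endothelial, fibroblast and T cells, COL1A1 alone was listed. NEFL, one of the HEK293 markers, was lower at 12 h in the T-REX arm against DMSO. Its log2 fold change was -0.33 (adjusted p = 0.00121) by edgeR's quasi-likelihood test, and its part in the members' results was not tested. Of the 6 listed HEK293 markers, 4 lay above 0 and 2 below in this comparison, with a median of 0.082. Against light alone at 12 h, 4 lay above 0 and 2 below, and against probe alone 2 above and 4 below.

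Per length, levels of RNA spanned a wide range inside each class, and most cytosolic members lay above most mitochondrial members. In the DMSO libraries at 12 h, the level per kilobase of annotated exon ran from 4.66 ± 0.616 CPM for CARS1 (cysteine) to 64.7 ± 3.07 CPM for EPRS1 (SD, n = 4) among the cytosolic members. IARS1 stood next to EPRS1 at 60.4 ± 1.76, and HARS1 (histidine) next to CARS1 at 5.09 ± 0.355, so that HARS1 and CARS1 differed by less than the SD of CARS1, and IARS1 and EPRS1 by little more than that of EPRS1. Among the mitochondrial members, IARS2 reached 46.96 ± 2.44 CPM per kilobase and RARS2 (arginine) 19.97 ± 1.43, while CARS2 lay at 2.17 ± 0.218 and VARS2 (valine) at 0.287 ± 0.0478. IARS2, the mitochondrial isoleucine enzyme, therefore lay above all cytosolic members but EPRS1 and IARS1, though within its own SD of RARS1 at 44.9 ± 4.44, and VARS2 was the lowest of the 34. These lengths are the union of all annotated exons of a gene, so that genes with many alternative exons come out lower than their main transcript would.

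**Figure D1:**
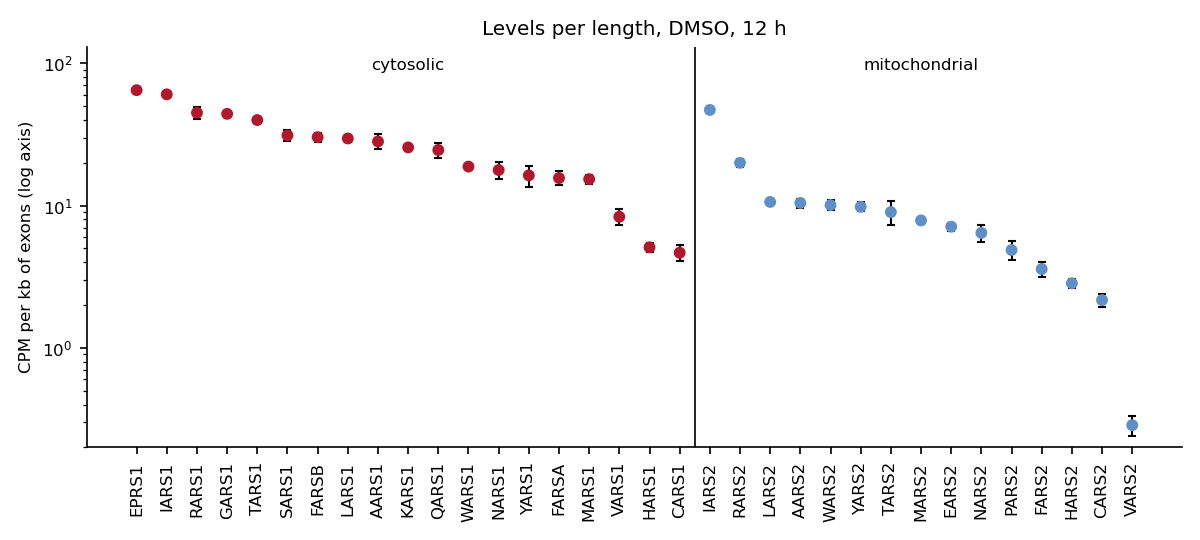
Level per length of each listed member in the DMSO arm at 12 h, on a log axis of CPM per kilobase of exons. Points are means and bars the SD of 4 libraries, with cytosolic members on the left and mitochondrial members on the right, from 64.7 for EPRS1 down to 0.287 for VARS2.

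At 3 h after T-REX, YARS1, the tyrosine enzyme, was the single member higher against at least 2 controls, and no mitochondrial member was called. YARS1 held 229.8, 227, 234 and 202 CPM in the 4 T-REX libraries, 191, 170.4, 167 and 191 with light alone, 194, 181, 196 and 200.1 with probe alone and 190.1, 175, 186 and 189 with DMSO. Every T-REX library lay above every control library, although the lowest T-REX library exceeded the highest probe alone library by little. Its log2 fold change was 0.31 ± 0.056 (SE, adjusted p = 0.0152) against light alone, 0.21 ± 0.056 (SE, adjusted p = 0.0659) against probe alone and 0.27 ± 0.056 (SE, adjusted p = 0.00783) against DMSO by edgeR's quasi-likelihood test. YARS1 was picked by the study on these samples, so that its direction is not independent evidence.

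CARS1, which charges the cysteine tRNA, was called against probe alone only. It held 64.7, 63.96, 69.7 and 67.1 CPM under T-REX, 67.3, 59.9, 61.5 and 53.2 with light alone, 56.5, 50.8, 49.1 and 57.5 with probe alone and 57.8, 55.6, 60.6 and 53.99 with DMSO. The T-REX libraries lay above all those of probe alone and DMSO, and overlapped light alone through 1 library. On the log2 scale it differed by 0.31 ± 0.068 (SE, adjusted p = 0.0352) against probe alone, 0.13 (adjusted p = 0.372) against light alone and 0.22 (adjusted p = 0.0579) against DMSO in the edgeR fit. The call was lost without T-REX replicate 4, probe alone replicate 1, 2 or 3 or DMSO replicate 1 or 2 (adjusted p = 0.0501 to 0.127).

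At 3 h, 1 of the 19 cytosolic members was thus called higher against each of the light alone, probe alone and DMSO controls, where 0.0817%, 0.238% and 1.45% of all genes were called higher. None was called lower, where 0.116%, 0.81% and 4.54% of all genes were. By the rule of at least 2 controls, 0.177% of all genes were higher and 0.769% lower, and 0.518% had all 4 T-REX libraries above all 12 control libraries, as YARS1 did. AARS1, the alanine enzyme, had the second largest mean difference, with 0.33, 0.18 and 0.22 against the 3 controls, and passed the test against none (adjusted p = 0.0667, 0.197 and 0.0882, edgeR). QARS1 and RARS1 had the smallest mean differences of the cytosolic class, -0.061 and -0.044 on the log2 scale. The YARS1 call against light alone was lost without T-REX replicate 2 or light alone replicate 2 or 3 (adjusted p = 0.0601 to 0.161, edgeR), and in a fit of only the 2 arms compared (adjusted p = 0.241). With the authors' 2 factors of unwanted variation as covariates, AARS1, CARS1 and YARS1 met the rule, which is 3 members in place of 1.

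At 6 h after T-REX, no member of either class passed the test against any control, although each cytosolic member that was called higher at 12 h had a mean difference above 0 here. At this time, 0.123%, 0.0204% and 0.177% of all genes were called higher against light alone, probe alone and DMSO, and 0.0953%, 0.0885% and 0.238% lower. The rule of at least 2 controls held for 0.0545% of all genes in the higher and 0.0817% in the lower direction. At an unadjusted p under 0.05, 9, 7 and 4 of the 19 cytosolic members and 0, 0 and 1 of the 15 mitochondrial members differed from light alone, probe alone and DMSO, beside 11.7%, 6.56% and 12.4% of all genes. TARS1, the threonine enzyme, named here after its values were seen, had all 4 T-REX libraries above all 12 controls, a pattern found in 0.388% of all genes. It held 263, 264, 268 and 252 CPM under T-REX, 235, 235, 213 and 244 with light alone, 243, 226, 247 and 244 with probe alone and 234, 249, 235 and 245 with DMSO. The difference was small, 0.18, 0.13 and 0.12 on the log2 scale (adjusted p = 0.135, 0.603 and 0.289, edgeR).

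YARS1 again had the largest mean difference at 6 h, with 192, 178, 169 and 189.99 CPM under T-REX, 140.4, 149.99, 113 and 173 with light alone, 167, 155, 147 and 162 with probe alone and 146, 150.4, 171 and 167 with DMSO. Light alone replicate 3 was low and light alone replicate 4 high, and 1 T-REX library fell below 2 of the control libraries. On the log2 scale it differed by 0.34 (adjusted p = 0.148) against light alone, 0.21 (adjusted p = 0.719) against probe alone and 0.20 (adjusted p = 0.367) against DMSO (edgeR). CARS1 followed with a mean difference of 0.22, and the mean differences of GARS1 (glycine), AARS1, SARS1 (serine) and MARS1 ran from 0.16 to 0.21. When the authors' 2 factors were added as covariates, 7 cytosolic members met the rule of at least 2 controls at 6 h in place of 0, namely AARS1, CARS1, GARS1, MARS1, SARS1, TARS1 and YARS1. Light alone replicate 3 had the value of the first factor farthest from 0 at this time (-0.66), and its CPM of YARS1, CARS1, AARS1, GARS1, MARS1, SARS1 and TARS1 were the lowest of the light alone arm.

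At 12 h after T-REX, RNA for several cytosolic enzymes was higher, and no mitochondrial enzyme passed the test. GARS1, IARS1, MARS1, SARS1 and YARS1 rose against at least 2 controls, AARS1, CARS1, EPRS1 and TARS1 against DMSO alone, and RARS1 fell against DMSO. The changes were small, with log2 fold changes between 0.15 and 0.46 for the calls in the higher direction. Of the 19 cytosolic members, 5, 2 and 8 were called higher against light alone, probe alone and DMSO, where 0.497%, 0.197% and 4.09% of all genes were called higher. In the lower direction, 0, 0 and 1 were called, where 0.79%, 0.504% and 6.79% of all genes were. The rule of at least 2 controls held for 5 cytosolic members in the higher direction, beside 0.49% of all genes, and for 0 in the lower direction, beside 0.912%. None of the 15 mitochondrial members was called against any control at 3, 6 or 12 h by edgeR, nor did any meet the rule by DESeq2. At an unadjusted p under 0.05 (edgeR), 2, 2 and 1 of them differed from light alone, probe alone and DMSO at 3 h, beside 14.8%, 18% and 21.9% of all genes, and 0, 0 and 5 at 12 h, beside 12.9%, 11.1% and 26.9%.

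**Figure D2:**
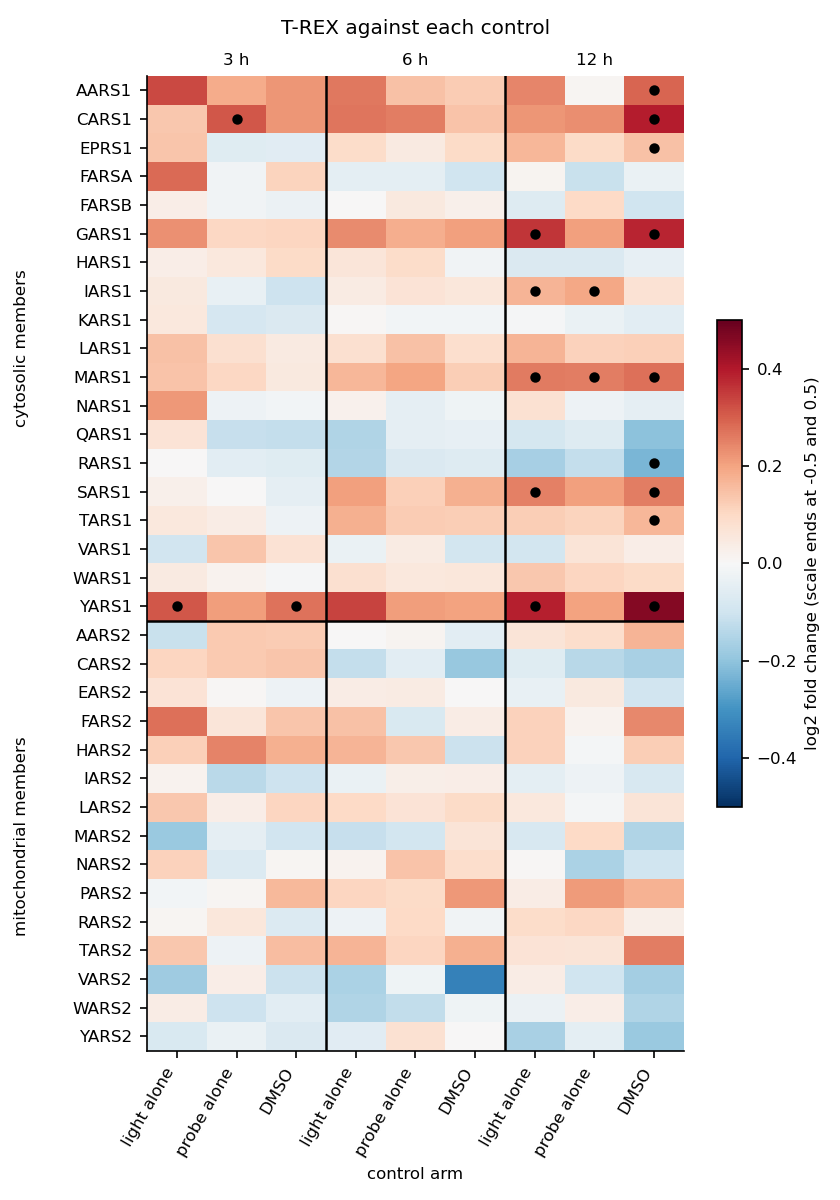
Log2 fold change of T-REX against each control for the 34 listed members (rows) in the 9 comparisons (columns, grouped by time). Red is higher and blue lower under T-REX, black dots mark an adjusted p of at most 0.05, and the line divides the 19 cytosolic members from the 15 mitochondrial members, among which there are no dots.

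MARS1, the methionine enzyme of the multi-synthetase complex, was the member called against all 3 controls. Its 4 T-REX libraries held 132, 129, 129 and 132 CPM, against 113, 105, 102 and 115 with light alone, 108, 108, 109.5 and 111 with probe alone and 114, 108, 97.00 and 111 with DMSO. The T-REX libraries were nearly equal and all lay above the highest control. On the log2 scale it differed by 0.26 ± 0.053 (SE, adjusted p = 0.00762) against light alone, 0.26 ± 0.053 (SE, adjusted p = 0.0175) against probe alone and 0.27 ± 0.053 (SE, adjusted p = 0.00183) against DMSO (edgeR). Leaving out light alone replicate 3 ended the call against that arm (adjusted p = 0.0574), and the call against probe alone ended when any 1 of T-REX replicates 1, 2 and 4 and probe alone replicates 1, 2 and 3 was left out (adjusted p = 0.0566 to 0.0818). MARS1, like YARS1, was picked by the study on these samples. Its exons overlap those of DDIT3, a stress-induced transcription factor gene, on the opposite strand, and the strand setting of the counting is not stated in the sources used here. DDIT3 itself held between 4.42 and 7.68 CPM at 12 h and differed by 0.03, 0.02 and -0.02 on the log2 scale (adjusted p = 0.969, 0.982 and 0.964, edgeR).

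GARS1, which charges glycine in both compartments, had the smallest adjusted p of the members. It held 256, 238, 226 and 234 CPM under T-REX, 173, 189, 187 and 195 with light alone, 200.04, 197, 216 and 214 with probe alone and 184, 189, 172 and 187 with DMSO. All T-REX libraries lay above all controls, and the probe alone libraries lay above all those of DMSO. Its log2 fold change was 0.36 ± 0.052 (SE, adjusted p = 0.000311) against light alone, 0.21 ± 0.052 (SE, adjusted p = 0.063) against probe alone and 0.38 ± 0.052 (SE, adjusted p = 6.45e-05) against DMSO (edgeR). KARS1, the lysine enzyme and the other member that serves both compartments, gave -0.01, -0.03 and -0.05 and was not called.

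YARS1 had the largest difference of all members at 12 h. Its libraries held 195, 176, 177 and 188 CPM under T-REX, 134, 137, 136 and 156 with light alone, 150.1, 155, 172 and 163 with probe alone and 142, 132, 104 and 158 with DMSO. Again no control library reached the T-REX libraries, and DMSO replicate 3 was the lowest of the 16. The log2 fold change was 0.39 ± 0.086 (SE, adjusted p = 0.0216) against light alone, 0.20 ± 0.086 (SE, adjusted p = 0.376) against probe alone and 0.46 ± 0.086 (SE, adjusted p = 0.00208) against DMSO (edgeR).

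SARS1, the serine enzyme, held 145, 141, 137 and 148 CPM under T-REX, 113, 119, 127 and 122 with light alone, 118, 131, 120.1 and 127 with probe alone and 126, 121, 104 and 127 with DMSO. All T-REX libraries lay above all controls, while the control arms overlapped each other, and its log2 fold change was 0.25 ± 0.059 (SE, adjusted p = 0.0251) against light alone, 0.20 ± 0.059 (SE, adjusted p = 0.123) against probe alone and 0.26 ± 0.059 (SE, adjusted p = 0.00613) against DMSO (edgeR). IARS1, the isoleucine enzyme of the complex, held 477, 493, 444 and 466 CPM under T-REX, 424, 419, 412 and 419.9 with light alone, 411, 407, 416 and 411 with probe alone and 430.2, 453, 461 and 446 with DMSO. Here T-REX replicate 3 lay inside the DMSO range, and the DMSO libraries lay above those of light alone and probe alone. Its log2 fold change was 0.17 ± 0.042 (SE, adjusted p = 0.0432) against light alone, 0.19 ± 0.042 (SE, adjusted p = 0.0245) against probe alone and 0.07 ± 0.042 (SE, adjusted p = 0.282) against DMSO (edgeR).

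CARS1 was called against DMSO only, yet all its T-REX libraries, with 60.3, 60.9, 59.5 and 65.1 CPM, lay above the controls. The controls held 49.2, 52.5, 51.9 and 57.5 with light alone, 47.3, 54.3, 52.8 and 55.04 with probe alone and 48.4, 49.2, 37.8 and 51.9 with DMSO, where replicate 3 was low. The log2 fold change was 0.39 ± 0.078 (SE, adjusted p = 0.00233) against DMSO, 0.22 (adjusted p = 0.186) against light alone and 0.23 (adjusted p = 0.213) against probe alone (edgeR). In all, CARS1, GARS1, MARS1, SARS1 and YARS1 had every T-REX library above every control library at 12 h, beside 0.858% of all genes. No mitochondrial member did so at 3, 6 or 12 h.

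AARS1 separated T-REX from light alone and DMSO but not from probe alone. It held 169, 146, 155 and 149.99 CPM under T-REX, 129, 134, 119 and 143 with light alone, 159, 150.5, 152 and 155 with probe alone and 143, 119.6, 109 and 135 with DMSO. The probe alone libraries lay inside the range of T-REX, with a log2 fold change of 0.01 ± 0.069 (SE, adjusted p = 0.981), while those against light alone and DMSO were 0.25 (adjusted p = 0.0816) and 0.29 (adjusted p = 0.00925) (edgeR). The other calls against DMSO were EPRS1 with 0.15 (adjusted p = 0.0459) and TARS1, named after its values were seen, with 0.16 (adjusted p = 0.0284). The AARS1 call was lost without T-REX replicate 1 (adjusted p = 0.0503) and the TARS1 call without T-REX replicate 1, 2 or 4 or DMSO replicate 1 or 2 (adjusted p = 0.0501 to 0.0903). EPRS1 lost its call without any single T-REX or light alone library or without DMSO replicate 1 or 4 (adjusted p = 0.054 to 0.132). In a fit of only the T-REX and DMSO arms, AARS1, EPRS1, RARS1, SARS1 and TARS1 also missed the threshold against DMSO (adjusted p = 0.069, 0.142, 0.0857, 0.0558 and 0.109, edgeR).

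RARS1, the arginine enzyme of the complex, moved the other way. It held 129, 135, 129.5 and 131 CPM under T-REX, 142, 153, 143 and 151 with light alone, 149, 135, 143 and 142 with probe alone and 148, 151, 175 and 139.9 with DMSO. All 4 T-REX libraries lay below all 12 controls, although by under 1 CPM against the lowest of probe alone, and 1.13% of all genes showed this pattern at 12 h. On the log2 scale it differed by -0.23 ± 0.057 (SE, adjusted p = 0.0116) against DMSO, -0.17 (adjusted p = 0.163) against light alone and -0.12 (adjusted p = 0.443) against probe alone (edgeR). QARS1, the glutamine enzyme of the same complex, had the next smallest mean difference, with -0.09, -0.06 and -0.20, and was not called (adjusted p = 0.0516 against DMSO, edgeR).

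**Figure D3:**
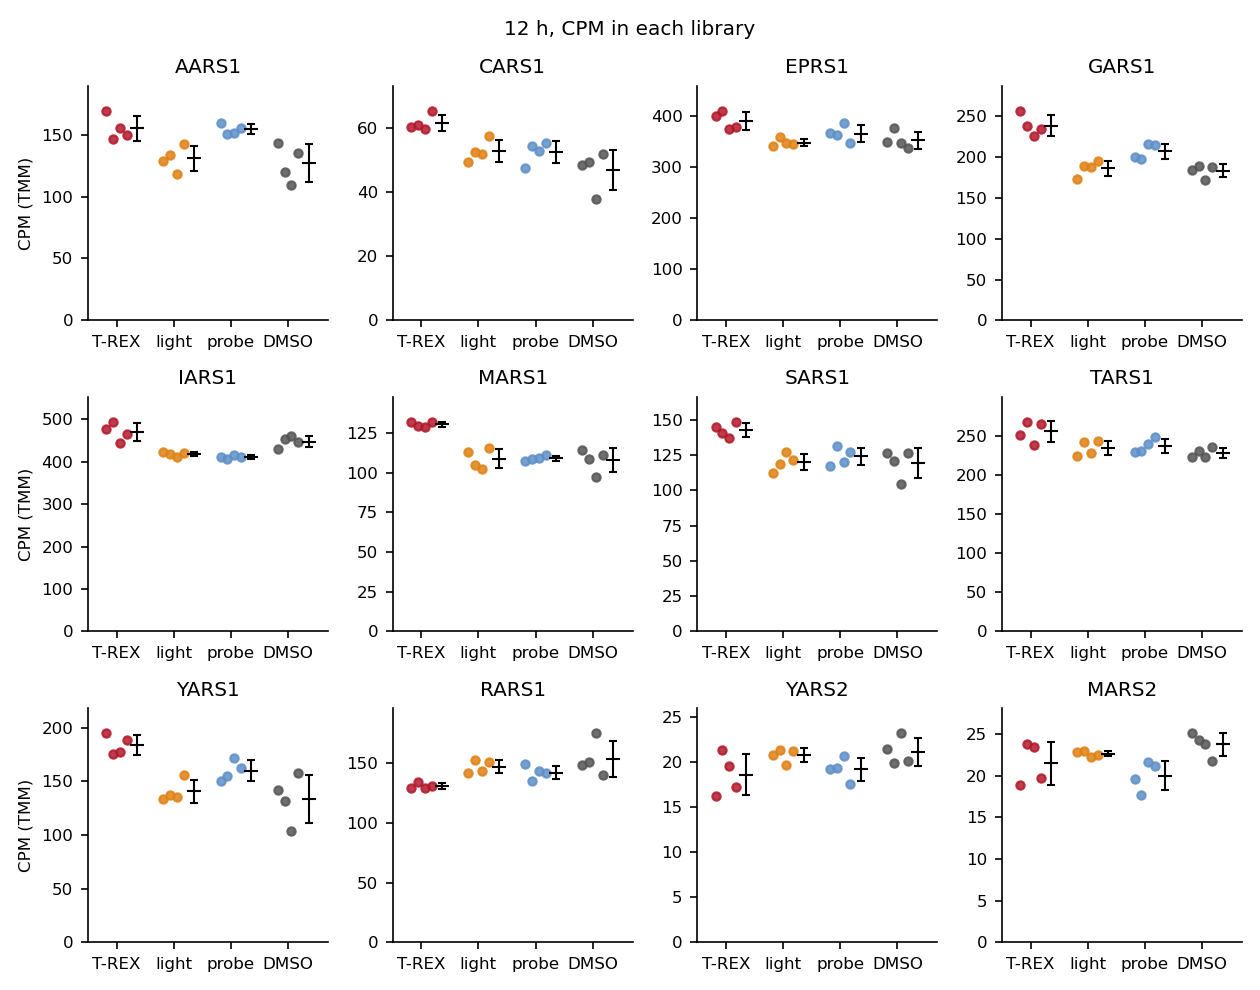
CPM in each library at 12 h for the 10 cytosolic members called against any control and for YARS2 and MARS2, the mitochondrial enzymes for tyrosine and methionine, by arm. Points are libraries and the bars beside them the mean and SD of 4. CARS1, GARS1, MARS1, SARS1 and YARS1 have all T-REX libraries above all controls, and RARS1 has them below.

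The calls at 12 h rested on few libraries in places. GARS1 and MARS1 met the rule of at least 2 controls in all 16 fits that left out 1 library, YARS1 in 11, SARS1 in 10 and IARS1 in 5. Against light alone, SARS1 lost its call without T-REX replicate 1, 2 or 4 or light alone replicate 1, 2 or 4 (adjusted p = 0.0579 to 0.118), and YARS1 without T-REX replicate 1 or 4 or light alone replicate 1, 2 or 3 (adjusted p = 0.0609 to 0.0937). IARS1 lost its call against light alone without T-REX replicate 1, 2 or 4, any light alone library, probe alone replicate 1 or 2 or DMSO replicate 2 (adjusted p = 0.0507 to 0.166), and its call against probe alone without T-REX replicate 1, 2 or 4 or probe alone replicate 1, 2 or 3 (adjusted p = 0.0663 to 0.125). The count of members that rose fell from 5 to 2 without T-REX replicate 1 or 4 or light alone replicate 1 or 2, and to 3 without T-REX replicate 2 or light alone replicate 3 or 4. It reached 9 without DMSO replicate 3, where AARS1, CARS1, EPRS1 and LARS1 (leucine) joined and RARS1 met the rule in the lower direction. With the authors' 2 factors as covariates, 10 members rose (TARS1 also joined) and RARS1 fell.

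The controls themselves differed in 3 members. At 12 h, probe alone against DMSO gave 0.28 (adjusted p = 0.0211) for AARS1 and 0.18 (adjusted p = 0.0476) for GARS1 in the higher direction, and -0.20 (adjusted p = 0.0347) for FARSB, the beta subunit of the phenylalanine enzyme (edgeR). In this comparison, 5.11% of all genes were called in either direction, and each T-REX difference from DMSO is the sum of the difference from probe alone and this one. FARSB held 91.3, 88.5, 86.1 and 89.6 CPM with probe alone and 95.95, 102, 113 and 97.3 with DMSO, without overlap. No member was called in the other 8 comparisons of control arms. At 3 h these called 0.00681% (light alone against DMSO), 0.00681% (probe alone against DMSO) and 0.232% (light alone against probe alone) of all genes, at 6 h 0.00681%, 0.0272% and 0.0613%, and at 12 h 0.0136% (light alone against DMSO) and 0.415% (light alone against probe alone).

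The mean differences of the mitochondrial members lay on both sides of 0. At 12 h, PARS2 (proline) and TARS2 (threonine) had the largest mean differences, 0.14 and 0.13, and YARS2 and CARS2 the smallest, -0.13 and -0.12. TARS2 held 44.4, 46.2, 43.8 and 41.2 CPM under T-REX, 38.97, 41.4, 44.6 and 42.6 with light alone, 40.5, 44.4, 41.3 and 41.7 with probe alone and 40.6, 37.01, 26.8 and 42.3 with DMSO. Only DMSO replicate 3 stood apart there, and the log2 fold change against DMSO was 0.26 ± 0.093 (SE, adjusted p = 0.0762), the lowest adjusted p of the class at this time (edgeR). YARS2 held 16.3, 21.3, 19.5 and 17.2 CPM under T-REX, 20.7, 21.3, 19.7 and 21.2 with light alone, 19.2, 19.4, 20.6 and 17.6 with probe alone and 21.4, 19.8, 23.2 and 20.04 with DMSO, with T-REX replicates 1 and 4 below the rest. Its log2 fold change was -0.16 (adjusted p = 0.47), -0.05 (adjusted p = 0.897) and -0.19 (adjusted p = 0.184) against the 3 controls in that order (edgeR).

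At 3 h, HARS2 and FARS2 (phenylalanine) were at the top of the class with mean differences of 0.18 and 0.15, and MARS2 and VARS2 at the bottom with -0.11 and -0.090. At 6 h, TARS2 and PARS2 led with 0.15 and 0.14, and VARS2 and CARS2 were lowest with -0.17 and -0.12. VARS2, with 1.16 to 3.05 CPM over the T-REX libraries at 12 h, had an SE of 0.24 in each comparison, the widest of the members. A missed threshold does not show that these genes stayed level. The 95% intervals of the 15 log2 fold changes spanned -0.44 to 0.51 against light alone, -0.57 to 0.43 against probe alone and -0.64 to 0.44 against DMSO at 12 h. VARS2 set both ends against light alone and the lower ends against probe alone and DMSO. The interval of IARS2, with the smallest SE of the class, ran from -0.16 to 0.055 against light alone, -0.13 to 0.082 against probe alone and -0.19 to 0.026 against DMSO.

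Read as classes, the medians of the cytosolic members lay above those of the mitochondrial members and of all genes at 12 h against each control. With light alone, probe alone and DMSO as the control in turn, the median log2 fold change of the 19 cytosolic members at 12 h was 0.13, 0.098 and 0.097, that of the 15 mitochondrial members 0.037, 0.019 and -0.080, and that of all genes 0.00091, 0.0014 and 0.0031. At 6 h, the cytosolic medians were 0.080, 0.067 and 0.057 and the mitochondrial medians 0.0020, 0.040 and 0.0035, beside 0.0059, 0.0054 and -0.0019 for all genes. At 3 h, they were 0.070, 0.018 and -0.0075 for the cytosolic and 0.037, 0.010 and 0.0095 for the mitochondrial members, beside 0.00063, 0.024 and 0.031 for all genes, so that against probe alone and DMSO both classes lay below the median of all genes at 3 h. These medians describe the lists and carry no test.

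The same order was visible library by library. The mean log2 CPM over the cytosolic members at 12 h was 7.003, 6.99, 6.93 and 6.99 in the T-REX libraries, 6.82, 6.88, 6.85 and 6.91 with light alone, 6.88, 6.89, 6.92 and 6.90 with probe alone and 6.92, 6.86, 6.82 and 6.87 with DMSO. The lowest T-REX library lay just above the highest control. Over the mitochondrial members, the T-REX libraries at 12 h gave 4.63, 4.82, 4.76 and 4.68 and the 12 controls 4.67 to 4.78, so that the T-REX arm spread across the controls on both sides. The 34 members took 0.357% to 0.372% of all counts in the T-REX libraries at 12 h and 0.319% to 0.349% in the controls. At 6 h, the shares were 0.359% to 0.368% under T-REX and up to 0.365% in the controls. The difference between the class means, cytosolic minus mitochondrial, was 2.17 to 2.37 under T-REX and 2.09 to 2.23 in the controls at 12 h, and these ranges overlapped. T-REX replicates 1 and 4, with the largest differences, were also the most deeply sequenced libraries of the 16.

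**Figure D4:**
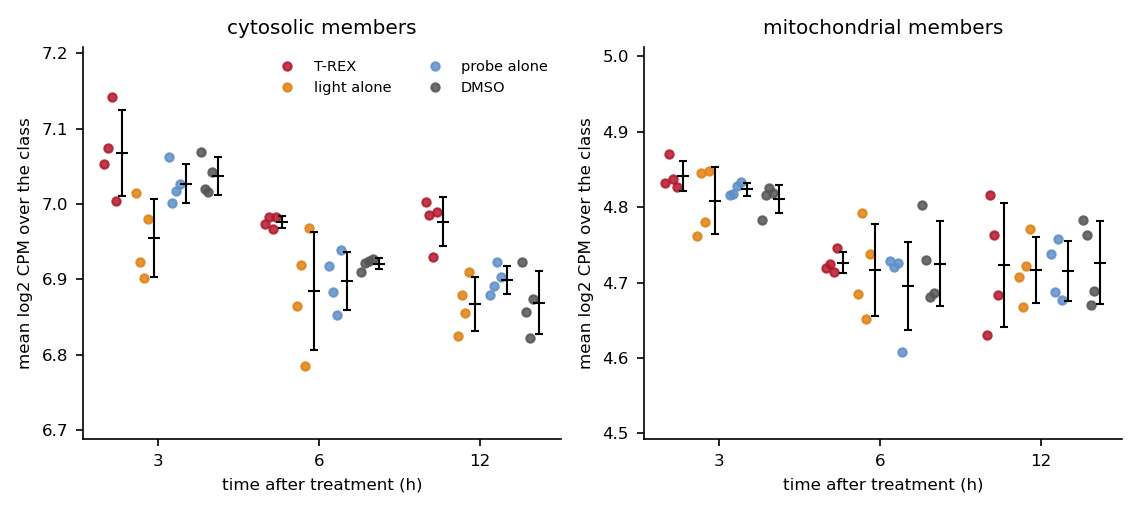
Mean log2 CPM over the cytosolic members (left) and the mitochondrial members (right) in each library, by arm and time. Points are libraries and bars the mean and SD of 4. At 12 h the cytosolic means lie between 6.93 and 7.003 under T-REX and between 6.82 and 6.92 in the controls, while the mitochondrial means overlap.

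The enzymes for 1 amino acid can be set side by side in 14 pairs for 13 amino acids (FARSA and FARSB, the subunits of the cytosolic phenylalanine enzyme, are both paired with FARS2). At 12 h, the cytosolic member had the larger mean difference in 10 of the 14 pairs, and at 3 h and 6 h in 8. The tyrosine pair stood farthest apart, with 0.35 for YARS1 and -0.13 for YARS2, followed by the cysteine pair, with 0.28 for CARS1 and -0.12 for CARS2, and the methionine pair, with 0.26 for MARS1 and -0.043 for MARS2. In the arginine pair the order was reversed, with -0.17 for RARS1 and 0.075 for RARS2. It was also reversed in the histidine pair, with -0.062 for HARS1 and 0.076 for HARS2. The same held for phenylalanine, with -0.042 for FARSA, -0.021 for FARSB and 0.12 for FARS2. The alanine and threonine pairs lay close together, with 0.18 and 0.11 for AARS1 and AARS2 and 0.13 and 0.13 for TARS1 and TARS2.

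**Figure D5:**
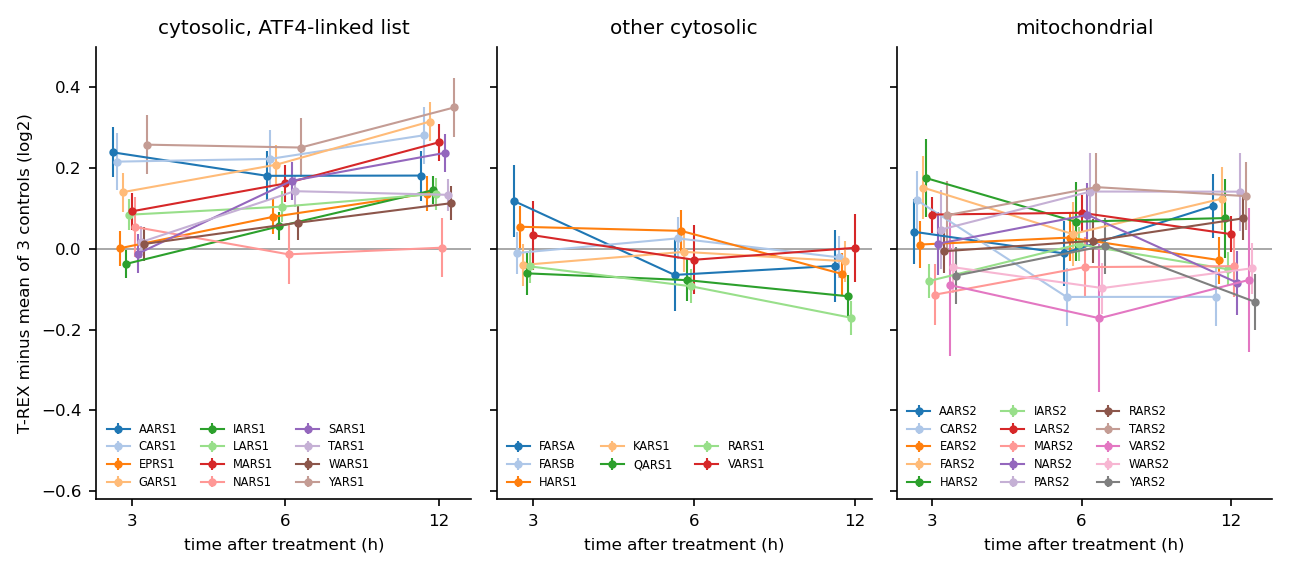
T-REX minus the mean of the 3 controls on the log2 scale at 3, 6 and 12 h for each member, with its SE from the fit of all 48 libraries. The left panel holds the 12 cytosolic members of the list of known ATF4 targets, the middle panel the other 7 cytosolic members and the right panel the 15 mitochondrial members. At 12 h the left panel reaches 0.35 (YARS1) and the middle panel -0.17 (RARS1).

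The rise was uneven inside the cytosolic class. All 9 members called higher against any control at 12 h belonged to a list of 12 cytosolic synthetases described as ATF4 targets (AARS1, CARS1, EPRS1, GARS1, IARS1, LARS1, MARS1, NARS1, SARS1, TARS1, WARS1 and YARS1). On this list, 5, 2 and 8 of 12 were called higher against light alone, probe alone and DMSO, and 0 lower, with medians of 0.20, 0.15 and 0.21 on the log2 scale. Of all genes, 0.497%, 0.197% and 4.09% were called higher in these comparisons and 0.79%, 0.504% and 6.79% lower. Of the 7 other cytosolic members (FARSA, FARSB, HARS1, KARS1, QARS1, RARS1 and VARS1), 0 were called higher and 1, RARS1, lower, with medians of -0.072, -0.063 and -0.054. NARS1, the asparagine enzyme, was on the list and lay at a mean difference of 0.0028 at 12 h. WARS1 (tryptophan) and LARS1 lay at 0.11 and 0.14 and were not called. For membership of the complex, 2, 2 and 2 of its 7 enzymes were called higher and 0, 0 and 1 lower, beside 3, 0 and 6 higher of the 12 enzymes outside it. By catalytic class, 3, 2 and 4 of the 19 class I enzymes and 2, 0 and 4 of the 15 listed class II enzymes were called higher. These lists were drawn with earlier results of these data known, and the split is a description.

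The promoters of the members were searched for the letters of the C/EBP-ATF composite element, TGATGNAAN on either strand, in the window from 250 bases before to 50 bases after the annotated start (RefSeq, GRCh38.p14). Of the 35 members, 30 had a promoter in the table, and LARS1, VARS1, YARS1, AARS2 and VARS2 did not. The letters were found in 7 of 16 cytosolic members (43.8%) and in 1 of 14 mitochondrial members (7.14%), beside 4.45% of the 27305 genes with a promoter and 2.67% of the 10443 of them that were listed in the count tables. All 7 cytosolic matches were on the ATF4-linked list, where 7 of 10 promoters (70%) held the letters, and 0 of the 6 other cytosolic promoters did. The element is one of the features by which such genes came to be called ATF4 targets, so that this share is not independent of the list. The windows of the 7 are shown because 6 of these 7 members were called at 12 h, with the letters in capitals and the 30 bases written 5′ to 3′ on the strand of the gene. GTTGCATCA reads TGATGCAAC on the other strand.
AARS1, chr16:70289675-70289704, minus strand: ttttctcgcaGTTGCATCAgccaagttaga
CARS1, chr11:3057407-3057436, minus strand: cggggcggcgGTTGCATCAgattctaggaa
GARS1, chr7:30594834-30594863, plus strand: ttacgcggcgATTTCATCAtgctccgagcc
IARS1, chr9:92293692-92293721, minus strand: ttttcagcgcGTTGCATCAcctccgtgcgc
MARS1, chr12:57488053-57488082, plus strand: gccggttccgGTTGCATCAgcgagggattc
NARS1, chr18:57621803-57621832, minus strand: ctacgctctcTGATGCAACgccggaatcgc
TARS1, chr5:33440956-33440985, plus strand: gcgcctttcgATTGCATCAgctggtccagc

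AARS1, CARS1, IARS1 and MARS1 shared the same 9 letters, GTTGCATCA, and NARS1 held their reverse complement. TARS1 differed from them in the first letter, with ATTGCATCA, and GARS1 had ATTTCATCA. The first base of the match lay 188 bases before the start in AARS1 and 34 bases before it in GARS1, and between 14 bases before and 14 bases after the start in the other 5 (CARS1, IARS1, MARS1, NARS1 and TARS1). Of these 7 members, GARS1, IARS1 and MARS1 met the rule of at least 2 controls at 12 h and AARS1, CARS1 and TARS1 were called against DMSO, while NARS1 was not called. SARS1, which met the rule at 12 h, and EPRS1, which was called against DMSO, had no match in this window. The mitochondrial match was in YARS2, with TGATGGAAA 197 bases before the start. The letters TGACGTCA, the cyclic AMP response element, were in none of the 30 members. They were in 2.25% of the genes with a promoter and in 4.08% of those listed in the count tables. A match is a description of the letters and not of binding.

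Genes of the same stress pathway outside the class were read from a list of 13 that report ATF4 activity. At 12 h, 4, 3 and 6 of the 13 were called higher against the 3 controls in the same order, and 0 lower. The medians of the 13 were 0.32, 0.21 and 0.27 on the log2 scale. These comparisons called 0.497%, 0.197% and 4.09% of all genes higher, and 0.79%, 0.504% and 6.79% lower. Of the 13, 0, 2 and 2 had a log2 fold change below 0, down to -0.12 with probe alone as the control. DDIT3, also on the list, was not called at 12 h. ATF4 itself held 391, 385, 364 and 400.5 CPM under T-REX, 324, 327, 323 and 344 with light alone, 323, 320.03, 334 and 351 with probe alone and 337, 321, 279.8 and 328 with DMSO. Its T-REX libraries lay above all controls, and its log2 fold change was 0.23 ± 0.053 (SE, adjusted p = 0.0251) against light alone, 0.22 ± 0.053 (SE, adjusted p = 0.0561) against probe alone and 0.28 ± 0.053 (SE, adjusted p = 0.00129) against DMSO (edgeR). SLC7A11, the cystine transporter subunit, was called against all 3 controls at 6 and 12 h, with log2 fold changes of 0.77, 0.73 and 0.90 at 12 h. CEBPG, a C/EBP family partner of ATF4, and PSAT1, of serine synthesis, were called against all 3 at 12 h, at 0.30, 0.26 and 0.27 and at 0.39, 0.35 and 0.22. ASNS, asparagine synthetase, was called against all 3 at 3 h, at 0.73, 0.74 and 0.82. At 6 and 12 h ASNS was called against neither light alone nor probe alone. Of the 13, only 1, 2 and 2 were called higher at 3 h and 1, 1 and 2 at 6 h. Below 0 on the log2 scale lay 2, 0 and 3 of them at 3 h and 0, 1 and 3 at 6 h. The lowest of these was -0.33, against DMSO at 6 h.

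The scaffold proteins of the complex were not called. At 12 h, AIMP1 gave -0.01, -0.05 and -0.02 on the log2 scale against light alone, probe alone and DMSO, AIMP2 -0.04, -0.03 and -0.04, and EEF1E1 -0.07, 0.16 and 0.05. This held at 3, 6 and 12 h (edgeR). Among 11 other genes of tRNA charging and proofreading, none was called either, and of the 9 listed elongation factor genes 1, EEF1A1, was lower against DMSO at 3 h, by -0.25 (adjusted p = 0.029), and was named after its values were seen.

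Whether the T-REX effect changed with time was tested in 1 fit of all 48 libraries. No member was called for a change between any 2 time points, and between 3 and 12 h 0.0545% of all genes were called for a rise of the effect and 0.0613% for a fall. SARS1 had the largest rise among the members from 3 to 12 h, from -0.012 to 0.24, a difference of 0.25 ± 0.068 (SE, adjusted p = 0.102), and IARS1 went from -0.038 to 0.15, a difference of 0.18 ± 0.049 (SE, adjusted p = 0.096, edgeR). YARS1, with 0.26, 0.25 and 0.35 at 3, 6 and 12 h, was high at each time. The class medians of this mean difference were 0.034, 0.065 and 0.13 for the cytosolic and 0.013, 0.020 and -0.028 for the mitochondrial members, beside 0.018, 0.0028 and 0.00087 for all genes. That 5 members passed the rule at 12 h and 0 at 6 h therefore does not show that their effect grew.

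Some members share annotated exon sequence with another gene. On the opposite strand, exons overlap for GARS1, HARS1, KARS1, MARS1, WARS1, YARS1, CARS2, EARS2, HARS2 and WARS2, and HARS1 and HARS2 overlap each other (GENCODE 29). HARS2 also overlaps ZMAT2 on its own strand. Libraries were stranded, but how strand was used in the counting is not given in the sources used here, so that part of the counts of these members could belong to the partner gene.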

How the data were processed

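RNA was sequenced from 4 arms of HEK293T cells at 3, 6 and 12 h (48 libraries). The authors prepared TruSeq Stranded libraries after depletion of ribosomal RNA, sequenced paired reads on a NovaSeq and demultiplexed them with bcl2fastq. They deposited raw counts per gene, not normalized, for 14685 Ensembl identifiers. The aligner, genome build, annotation and counting tool for these counts are not given in the Methods, and a reporting form lists cutadapt, TopHat and Cufflinks. The authors also deposited 2 factors of unwanted variation (RUV) as a score per library, which enter only as an alternative, and log2 CPM tables not used here. Symbols were matched for 14648 identifiers, and exon lengths from GENCODE 29 for 14556. The replicate is the library, and the study describes the 4 repeats of each arm as biologically independent.

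In R 4.3.3, edgeR 4.0.16 was run on the counts (TMM, filterByExpr, robust estimateDisp and glmQLFit, quasi-likelihood F-test), with the 16 libraries of a time point in 1 fit and Benjamini-Hochberg adjustment over all genes. The filter removed no gene. Scripts were tested on simulated data. The members and gene lists were chosen with earlier results of these data known. Named members are those called against at least 2 controls, MARS1 and YARS1, the 2 largest and 2 smallest mean differences per class and time, the 2 highest and 2 lowest levels per length, and those called between controls or for a change with time. Alternatives were DESeq2 1.42.0, RLE factors, no filter, the replicate number as a block, RUV covariates, 2-arm fits, leaving out each library, and other promoter letters. Protein identity between the classes was planned and is not analysed here. The result for 1 marker gene is not reported here.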

Additional observations from a re-analysis of the deposited data

Results flagged for a closer look

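Within groups of 4 libraries, the gap of the farthest library to its neighbour, divided by the range, exceeded Dixon's 95% critical value in 9 of the 264 groups checked for the 22 named members, and chance flags about 1 in 20 groups. At 3 h, IARS1 with light alone had 478 CPM in replicate 1, above the others. At 6 h, HARS2 under T-REX had 13.5 CPM in replicate 1, EPRS1 with probe alone 387 CPM in replicate 1, PARS2 with probe alone 14.6 CPM in replicate 3, MARS2 with DMSO 25.3 CPM and YARS2 with DMSO 22.6 CPM, both in replicate 1, each above the others of its group. At 12 h, FARSB with light alone had 94.0 CPM in replicate 1, below the others, YARS1 with light alone 156 CPM in replicate 4, above them, and VARS2 with DMSO 3.02 CPM in replicate 1, above them. No member was called for a change of its T-REX effect between time points by the interaction test, and a missed threshold does not show that the effects were equal.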

How the results depend on the processing

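GARS1 and MARS1 at 12 h met the rule of at least 2 controls under every alternative run, which for SARS1 and YARS1 held except when single libraries were left out. No member's call was reversed. At 3 h, the count of cytosolic members higher against at least 2 controls was 1, and became 3 with the RUV factors as covariates, 0 in fits of only the 2 arms compared, 2 by DESeq2 and 0 to 2 when single libraries were left out. At 6 h it was 0 and became 7 with the RUV covariates. At 12 h it was 5 and became 10 with the RUV covariates, 7 by DESeq2, 6 in 2-arm fits and 2 to 9 when single libraries were left out, and the count in the lower direction was 0 and became 1 with the RUV covariates and 0 to 1 when single libraries were left out. The mitochondrial counts were 0 in all fits. The replicate number as a block gave 4 at 12 h (IARS1 dropped, adjusted p = 0.0694 against light alone by edgeR), and changed neither the 3 h nor the 6 h count. Libraries of different arms with the same number correlated in their deviations from the arm means between -0.644 and 0.58 at 3 h, -0.538 and 0.473 at 6 h and -0.348 and 0.234 at 12 h. With different numbers, these ranges were -0.646 to 0.701, -0.386 to 0.474 and -0.382 to 0.392. The numbers thus show no pairing of the libraries. Single libraries of different arms were still correlated, most at 3 h, and the main fit does not model this. With TGATGCAAN alone, 6 cytosolic and 0 mitochondrial promoters matched, and with TGATGAAAN alone 1 and 0. RLE factors and the absence of a filter changed no count. Of the 396 class medians recomputed, 14 moved by more than the spread between replicates, all when a library was left out. The causes were not tested. The lowest count of any member was 42, for VARS2, whose SE was the widest at 12 h.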
